A study of Mus musculus with 2 samples.

Results

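The ATP-binding cassette (ABC) family was followed in macrophages grown from mouse bone marrow. Its members were taken as every gene whose symbol is Abc, a letter from a to g and a digit. Of 19505 named genes on the array 48 were members, each read by 1 probe set. The study has 2 samples with 1 array each. One is of the genotype LysM (+);MC4RTB/TB, called LysM(+) here, and the other of the genotype MC4RTB/TB, called TB/TB here, so cells of both groups are homozygous for the TB allele of the melanocortin 4 receptor gene. As background, TB alleles are known to hold a transcription block that Cre recombinase excises, and LysM (Lyz2) is a usual promoter for Cre in macrophages and neutrophils; neither is explained in the labels. Marrow cells of both groups were grown in medium with 10% fetal bovine serum, received the macrophage growth factor M-CSF (25 ng/mL) on day 0 and again on day 3, and were used from day 5, with no further treatment. The sources used here give no strain, age or number of animals.

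ABC proteins share a domain that binds and hydrolyses ATP. Most members are membrane pumps that use this energy to carry lipids, drugs, conjugates, peptides or haem precursors across a membrane, while subfamilies E and F lack membrane spans and act on ribosomes. In macrophages the family is best known for cholesterol export: Abca1 passes cholesterol and phospholipid to lipid-poor apolipoprotein A-I, and Abcg1 passes cholesterol to high density lipoprotein. Both genes are known targets of the liver X receptors (LXR), which respond to oxidised sterols.

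Values are log2 expression values as deposited, and a difference is LysM(+) minus TB/TB on that scale. With 1 array per group there was no replicate check, no test was run and no error can be given, so every difference describes these 2 arrays. A member was called above background, or expressed, where both of its values exceeded 6.81, the highest value of 23 background control probe sets. It was called background level where both values lay under 6.12, the brightness floor, which is the median over the named probe sets. A gene was counted as differing where its values were at least 1.5-fold apart (0.58 on the log2 scale) and the brighter reached the floor. All 11 measured macrophage markers, of 12 listed, were above background on both arrays, with values from 12.41 to 19.04. Of these 11, 4 were higher and 7 lower in LysM(+), 0 were counted, and the median difference was -0.17. Their differences ran from -0.57 for Mertk to 0.42 for Msr1. Mc4r itself, at 4.45 in LysM(+) and 4.57 in TB/TB, was at background level and gives no check of the genotypes.

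Of the 48 members, 22 were above background on both arrays, 21 were at background level on both and 5 lay between. Those 5 were Abca7, Abca13, Abcb10, Abcd4 and Abcg4, and each reached the floor on 1 array only. Of all 19505 named genes, 8096 were above background on both arrays, 9368 were at background level on both and 2041 lay between. The family's split lay near this one. Because the floor is a median over the named probe sets, it sets much of the split over all genes by construction. The expressed members covered every subfamily: 3 of 16 in A, 5 of 9 in B, 5 of 10 in C, 2 of 3 in D, the sole member of E, 3 of 3 in F and 3 of 6 in G. The count depends on the limit. With each array's 95th percentile of the 5222 probe sets that carry neg in their identifier (10.03 in LysM(+) and 10.49 in TB/TB), a limit chosen after seeing the data, 10 members were above it on both arrays: Abca1, Abca3, Abca9, Abcc1, Abcc3, Abcc5, Abcd3, Abce1, Abcf2 and Abcg1.

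**Figure D1:**
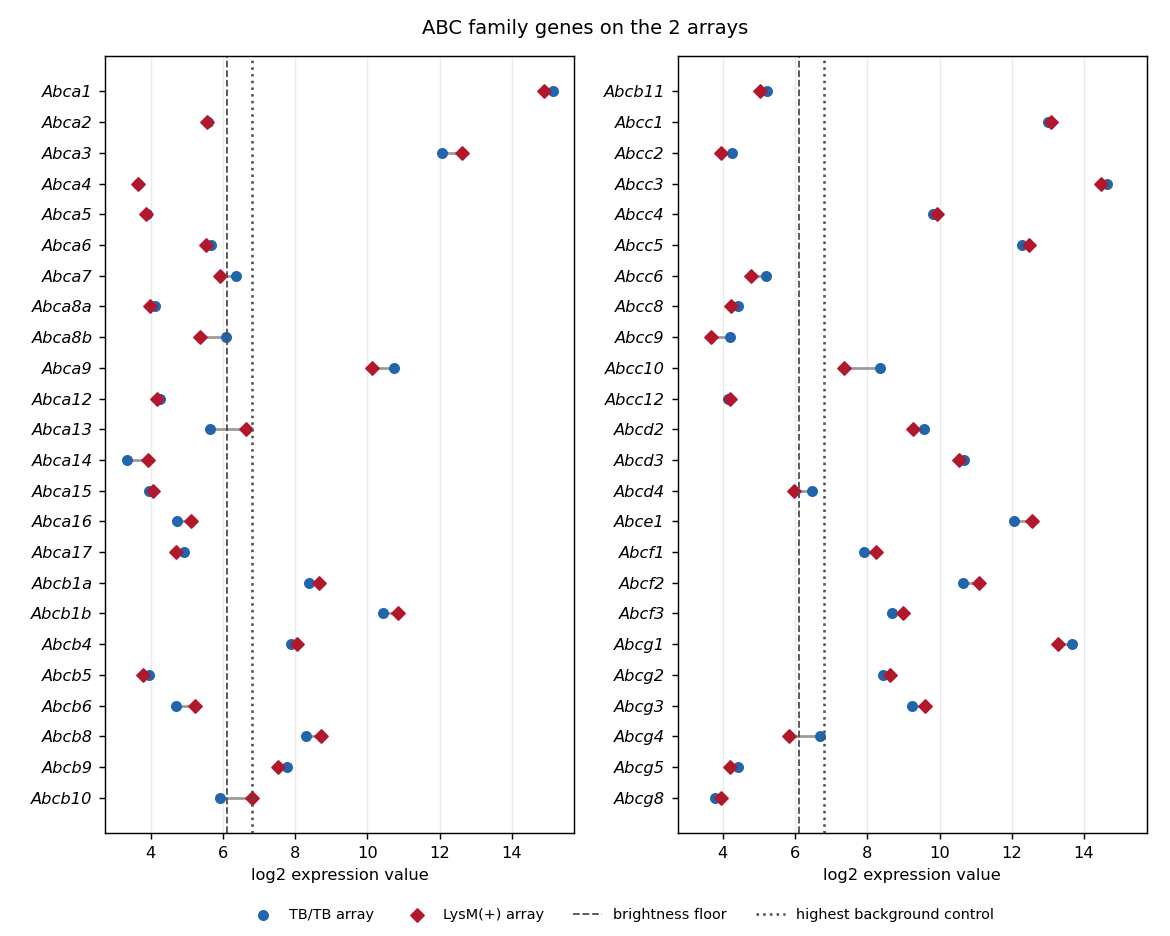
Log2 expression value of each of the 48 ABC family genes on the LysM(+) array (diamonds) and the TB/TB array (circles), with a line joining the values of a gene. The dashed line is the brightness floor of 6.12 and the dotted line the highest background control, 6.81; 22 genes lie right of the dotted line on both arrays, and values of different genes come from different probes and are not comparable in level.

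The family as a whole did not lean to either array. Its median difference was -0.01, as was that of all 19505 named genes, with 22 members higher and 26 lower in LysM(+). Of the 27 members that reached the floor 5 were counted as differing, 2 higher and 3 lower, or 18.5%, against 16.1% of 10137 named genes reaching the floor. By direction, that background was 10.9% higher and 5.16% lower. Among the 22 members above background on both arrays 2 differed, Abcc10 and Abca9, both lower in LysM(+), which is 9.09% against 13.5% of 8096 named genes (10.0% higher and 3.52% lower). These shares lie near the background and say nothing particular about the family. At 2-fold, no member was counted in either direction (0 and 0).

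**Figure D2:**
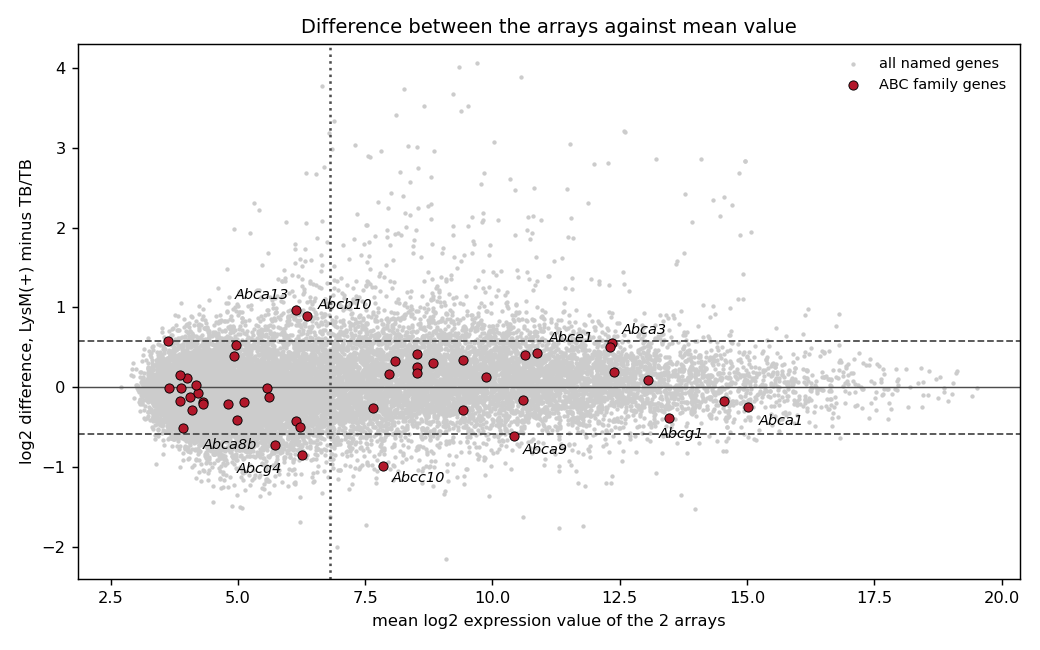
Difference between the arrays (LysM(+) minus TB/TB, log2) against the mean log2 value of the 2 arrays for all named genes (grey) and the 48 ABC family genes (filled). Dashed lines mark 1.5-fold and the dotted line the highest background control; Abcc10 and Abca9 are the sole members past 1.5-fold with both values right of it, at -0.98 and -0.61.

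The cholesterol exporters all had lower values in LysM(+), by less than 1.5-fold where they were clearly expressed. Abca1 had a log2 value of 14.90 in LysM(+) and 15.14 in TB/TB, a difference of -0.24 or 1.18-fold. Abcg1 had values of 13.28 and 13.67, a difference of -0.39 or 1.31-fold. Abca1 and Abcg1 were thus far above background on both arrays, and neither was counted as differing. Of the 8096 named genes above background on both arrays, 3260 were lower in LysM(+) by any amount. Abcg4, a close relative of Abcg1 best known from the nervous system and from platelet progenitors, had values of 5.83 and 6.68, a difference of -0.85 or 1.80-fold. Its LysM(+) value lay under the floor and its TB/TB value within the range of the background controls, so it was counted only through TB/TB and its fold is not exact. With centring, quantile normalization or loess the differences ranged from -0.30 to -0.24 for Abca1, from -0.46 to -0.38 for Abcg1 and from -0.85 to -0.80 for Abcg4.

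The promoter of Abca1 carries short elements tied to sterol-dependent control, shown here because Abca1 is the exporter most often read as a sign of LXR activity. The sequences below come from the RefSeq promoter table of GRCm38.p6, run 5′ to 3′ along the gene and have the match in capitals. The LXR element was searched as 2 copies of AGGTCA with 4 bases between them, on both strands in the 250 bases before each start site. The Abca1 match lies on the opposite strand with 3 mismatches, 67 to 52 bases before the start, and the E-box, CACGTG, lies 147 to 142 bases before it.
Abca1 LXR element, chr4:53159940-53159969, minus strand: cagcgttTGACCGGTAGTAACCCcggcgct
Abca1 E-box, chr4:53160025-53160054, minus strand: gggccatgtctcCACGTGctttctgctgag
The LXR element with up to 3 mismatches was present in 18.5% of 32851 promoters and with none in 0.0152%, and the E-box in 6.02%. Among the 38 ABC genes with a promoter sequence, 2 held the looser LXR element (Abca1 and Abcc10) and 5 the E-box (Abca1, Abca15, Abca8a, Abcc4 and Abcf1). The shares are per promoter and the counts per gene, with 45 promoters for the 38 genes. A match is a stretch of letters, not a measured binding site, and the arrays do not read it.

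Genes that work beside the exporters did not lean together. Of 17 measured genes of sterol export and LXR control (22 listed), 1 was counted higher, 1 lower, and the median difference was -0.07. Cyp27a1, which makes the oxysterol 27-hydroxycholesterol, a ligand of LXR, had values of 11.05 in LysM(+) and 12.03 in TB/TB, and was 1.97-fold lower. Tmem97, a membrane protein that binds NPC1 and is known as a sterol-responsive gene, had values of 10.72 and 9.28, a 2.73-fold higher signal. Stard3, a late endosomal sterol carrier, differed by -0.43, and Rxra, the partner of LXR, by -0.36. Nr1h3, which encodes LXR alpha, differed by -0.14; it was picked with its value known. Sterol synthesis genes were mostly higher in LysM(+) on the same arrays. Of 16 measured (20 listed), 10 were counted in that direction and 0 in the other, and their median was 0.83. For both lists, the shares over all named genes reaching the floor were 10.9% counted higher and 5.16% counted lower. Sqle, Idi1, Cyp51 and Fdps, enzymes of the pathway from mevalonate to cholesterol, were 3.93-fold, 3.16-fold, 2.62-fold and 2.62-fold higher. The relation of these values to those of the exporters was not tested.

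Other lipid transporters of subfamily A were mostly at background level, and the expressed ones differed in both directions. Abca3, which loads phospholipid into lamellar bodies of lung cells, had values of 12.63 in LysM(+) and 12.08 in TB/TB, a 1.46-fold higher signal that was just under the 1.5-fold limit. Abca9, a relative of Abca6 and Abca8 known from macrophages, had values of 10.12 and 10.73, which is 1.53-fold lower and just past it. Abca13, a very large member of unclear substrate, had values of 6.63 and 5.66 and was counted as 1.96-fold higher, but it reached the floor in LysM(+) only and lay within the background control range on both arrays. Abca7, a phospholipid exporter linked to phagocytosis, had values of 5.93 and 6.35. Abca2, Abca4, Abca5, Abca6, Abca8a, Abca8b and Abca12 were at background level. Among these 7, Abca8b had values of 5.37 and 6.10, a difference of -0.73 between background-level signals, while the others differed by at most 0.13. Abca14, Abca15, Abca16 and Abca17, known mainly from testis, were at background level with differences from -0.21 to 0.58.

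Some members are genomic neighbours, and the RefSeq gene order places 0 other protein-coding genes between those of each cluster. On chromosome 11, Abca8b, Abca8a, Abca9, Abca6 and Abca5 stand side by side, and all 5 had lower values in LysM(+), from -0.73 to -0.01; of them Abca9 alone was above background. On chromosome 5, Abcb1a, Abcb1b and Abcb4 were all above background and all higher, by 0.16 to 0.40. On chromosome 7, Abca14, Abca15 and Abca16 were higher by 0.11 to 0.58, all at background level. Of all 9368 named genes at background level, 5545 were lower and 3822 higher by any amount. Close copies such as Abcb1a and Abcb1b or Abca8a and Abca8b can share probe signal. No member (0) matched another gene in both of its values, but this finds identical values only and cannot show partly shared signal.

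Among the P-glycoproteins, which pump drugs and lipids out of cells, the neighbours on chromosome 5 differed by less than 1.5-fold. Abcb1a had values of 8.65 in LysM(+) and 8.39 in TB/TB. Abcb1b, the other mouse drug-exporting P-glycoprotein, had values of 10.85 and 10.45, a 1.32-fold higher signal. Abcb4, which moves phosphatidylcholine into bile, had values of 8.05 and 7.88. Abcb5 and the bile salt pump Abcb11 were at background level, with no value over 5.22. The drug and urate exporter Abcg2 had values of 8.61 and 8.44, and its mouse relative Abcg3 had values of 9.59 and 9.25, a 1.27-fold higher signal. These 5 expressed genes (Abcb1a, Abcb1b, Abcb4, Abcg2 and Abcg3) were thus higher in LysM(+) by 0.16 to 0.40, and none was counted as differing; of the 8096 named genes above background, 59.7% were higher by any amount.

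Transporters of mitochondria and lysosomes in subfamily B differed among themselves. Abcb10, an inner mitochondrial membrane protein needed for haem synthesis in red cell precursors, had values of 6.81 in LysM(+) and 5.92 in TB/TB and was counted as 1.85-fold higher. It reached the floor in LysM(+) only, and its LysM(+) value stood at the upper edge of the background controls, so this fold is not exact. Abcb8, another inner mitochondrial membrane protein, had values of 8.72 and 8.31, a 1.33-fold higher signal above background on both arrays. Abcb6, a porphyrin transporter, was at background level with values of 5.24 and 4.70. Abcb9, a lysosomal peptide transporter, was the member of this group with a lower value in LysM(+), 7.51 against 7.78. The 14 measured genes of mitochondrial haem and iron-sulfur synthesis (15 listed) were split 7 higher and 7 lower, 0 were counted as differing, and the median difference was -0.0012. Alas1, which starts haem synthesis, differed by 0.30, the mitochondrial carrier Slc25a39 by 0.34, Glrx5 of iron-sulfur assembly by 0.44, and Ppox, a late enzyme of haem synthesis, by -0.48. Of 4 measured erythroid markers (7 listed) 1 was above background on both arrays and all 4 were lower in LysM(+).

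Subfamily C held the largest difference among expressed members. Abcc10, a broad drug exporter also named MRP7, had values of 7.36 in LysM(+) and 8.35 in TB/TB, a difference of -0.98 or 1.98-fold lower, with both values above background. It was the member above background with the largest difference in either direction, and it stayed between -1.03 and -0.98 with centring, quantile normalization or loess. The other expressed multidrug resistance proteins differed far less. Abcc1, which exports leukotriene C4 and glutathione conjugates, had values of 13.09 and 13.00. Abcc3, an exporter of glucuronide conjugates, had values of 14.46 and 14.64. Abcc4, which carries cyclic nucleotides and prostaglandins out of cells, had values of 9.94 and 9.81, and Abcc5, another cyclic nucleotide exporter, had values of 12.48 and 12.29. These 4 genes differed by at most 0.19 in size, inside the interquartile range of all named genes, -0.23 to 0.23. Over named genes above background that range was -0.15 to 0.32, and Abcc3, at -0.18, lay just below it. Glutathione genes, which feed Abcc1, had a median difference of 0.10 over 11 measured (12 listed), with 0 counted; Slc7a11, the cystine importer, differed by 0.47, Gpx1 by 0.45, Gss by 0.38 and Gstm1 by -0.45.

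The remaining members of subfamily C were at background level. Abcc2, Abcc6 and Abcc12 had differences of -0.28, -0.42 and 0.03, and the sulfonylurea receptors Abcc8 and Abcc9, regulatory subunits of ATP-sensitive potassium channels, had differences of -0.19 and -0.51. Of their channel partners, Kcnj8 had values of 6.92 and 6.33, the latter within the background control range, and was 1.499-fold higher, just short of being counted, while Kcnj11 was at background level. Cftr, a chloride channel of the same subfamily whose symbol falls outside the rule, was also at background level, at 3.94 and 3.80.

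Subfamily D, which moves fatty acyl groups into peroxisomes or cobalamin out of lysosomes, was lower in LysM(+) in all 3 measured members, and none was counted. Abcd2, a carrier of very long chain acyl groups, had values of 9.28 in LysM(+) and 9.57 in TB/TB. Abcd3, the carrier of branched and long chain acyl groups, had values of 10.52 and 10.68. Abcd4, the lysosomal cobalamin transporter, had values of 5.98 and 6.47 and reached the floor in TB/TB only. Of the 8096 named genes above background on both arrays, 3260 were lower by any amount. The peroxisomal beta-oxidation genes had a median difference of -0.11 over 12 measured (13 listed), 4 higher and 8 lower with 0 counted. Pex3, which docks the peroxisomal membrane protein receptor, differed by 0.56, and its partner Pex19 by -0.36; the oxidase Acox3 differed by -0.43 and the thiolase Acaa1a by -0.33.

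**Figure D3:**
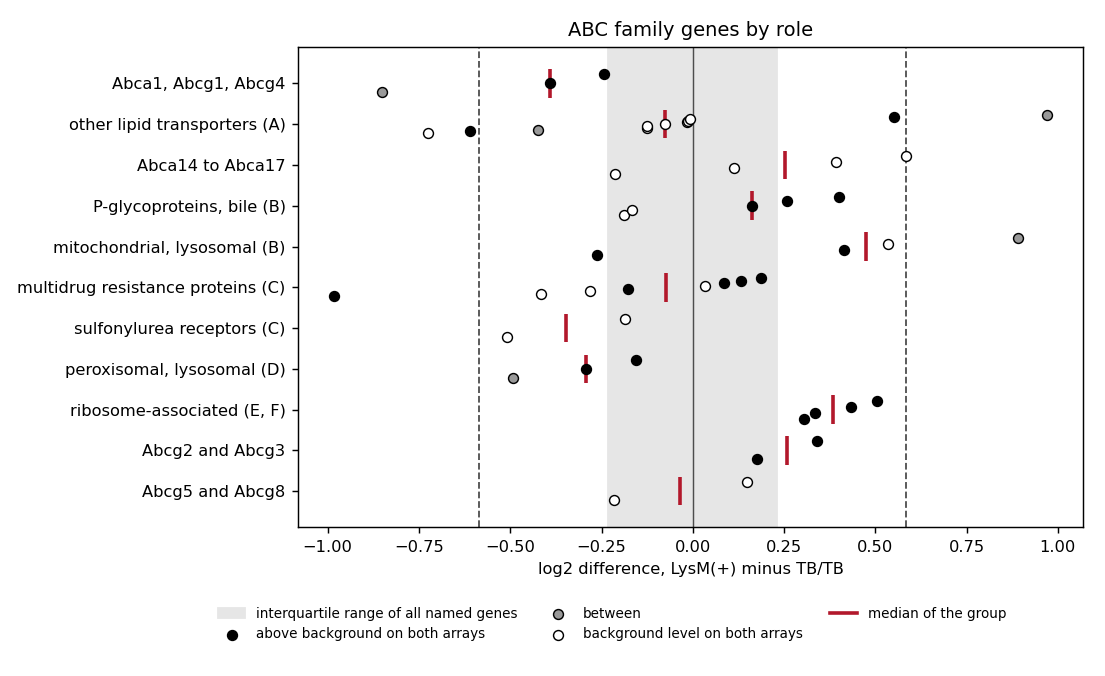
Difference between the arrays (LysM(+) minus TB/TB, log2) for each ABC family gene, by role. Black points were above background on both arrays, open points at background level and grey points between; the red line is the median of the group, the grey band the interquartile range of all named genes (-0.23 to 0.23) and dashed lines 1.5-fold. All 4 genes of subfamilies E and F lie right of the band, from 0.31 to 0.50. All 3 exporters lie left of it, from -0.85 to -0.24. Over the 8096 named genes above background the interquartile range was -0.15 to 0.32, which holds Abcf3 (0.31).

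The ribosome-associated members were all expressed and all higher in LysM(+), each by less than 1.5-fold. Abce1, which splits ribosomes after termination so that they can be used again, had values of 12.56 in LysM(+) and 12.05 in TB/TB, a 1.42-fold higher signal. Abcf1, which binds initiation factor eIF2, had values of 8.24 and 7.91. Abcf2 had values of 11.09 and 10.66, a 1.35-fold higher signal, and Abcf3, a relative of the yeast translation regulator GCN20, had values of 8.99 and 8.68. The 4 differences ran from 0.31 to 0.50. Of the 8096 named genes above background, 59.7% were higher by any amount. The interquartile range over those 8096 was -0.15 to 0.32, which holds Abcf3. The direction of the 4 held with centring, quantile normalization or loess, under which the smallest difference was 0.22, for Abcf3.

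The start regions of these 4 genes were searched for the same kinds of letters, because the 4 lay on the same side. The GC box, GGGCGG on either strand, was present before the start of Abcf1, Abcf2 and Abcf3 and not in the window of Abce1; for Abcf2 the outermost of 2 start sites is shown, and for Abcf1 the match nearer the start of 2. Capitals mark the box, here as its reverse complement.
Abcf1, chr17:35969779-35969808, minus strand: tacatggagagcCCGCCCactggccggccc
Abcf2, chr5:24577488-24577517, minus strand: cggaggagagtcCCGCCCtaagttcttacg
Abcf3, chr16:20548505-20548534, plus strand: gttctactagacCCGCCCcctggactcacg
A GC box was present in 32.7% of all promoters searched and in 17 of the 38 ABC genes with a sequence. As above, shares are per promoter and counts per gene. The GC box is a common element and does not set these 3 genes apart. Of the other elements searched, the E-box was found for Abcf1. The inverted CCAAT box, ATTGG, was found for Abce1 and Abcf2 and in 33.8% of all promoters.

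Partners of the ribosome-associated proteins showed no shift of 1.5-fold. Of 9 measured genes of ribosome rescue and initiation (13 listed), 7 were higher and 2 lower, 0 were counted, and the median difference was 0.12. The initiation factor genes Eif3a, Eif2s3x and Eif6 differed by 0.56, 0.43 and 0.43, and the termination factor gene Gspt1 by 0.46. Genes of dividing cells differed far more on the same arrays. All 9 measured markers (10 listed) were counted higher in LysM(+), against 10.9% of named genes reaching the floor, and the median was 2.98. Their summed level on the log2 scale was 14.35 in LysM(+) and 11.42 in TB/TB. Of the 9, 4 were above background on both arrays; the others were within the background control range in TB/TB, Cdk1 (5.22) and Bub1 (5.37) under the floor there, so the median is not exact. Their part in the values of Abce1, the Abcf genes or any other member was not tested.

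**Figure D4:**
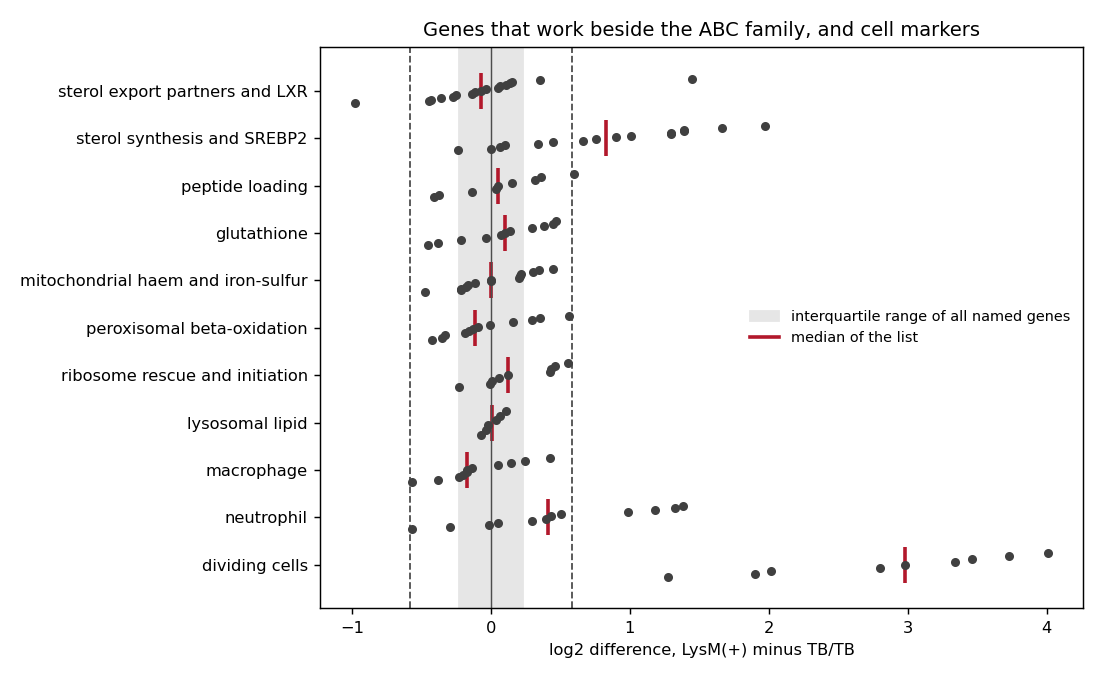
Difference between the arrays (LysM(+) minus TB/TB, log2) for each measured gene of the lists named at the left; the red line is the list's median, the grey band the interquartile range of all named genes and dashed lines 1.5-fold. Sterol synthesis genes (median 0.83) and dividing-cell markers (median 2.98) lie to the right, while the first list and the lists from peptide loading to lysosomal lipid have medians between -0.11 and 0.12.

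The peptide transporter of antigen presentation is formed by ABC proteins whose symbols fall outside the rule, Tap1 and Tap2. Tap1 had values of 9.96 in LysM(+) and 10.38 in TB/TB, and Tap2 had values of 7.10 and 7.48, differences of -0.41 and -0.38. Neither was counted. The lysosomal relative Abcb9 differed the same way, by -0.26. The peptide loading list as a whole had a median difference of 0.05 over 9 genes, with 6 higher and 3 lower. Of these, 1 was counted, the peptidase gene Erap1, at 1.51-fold higher. Among named genes reaching the floor, 10.9% were counted higher. Pdia3, a chaperone of the loading complex, differed by 0.36.

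Background-level members leaned lower in LysM(+), as did background-level genes in general. Of the 21, 15 were lower and 6 higher, with a median difference of -0.13, and 1 (Abca8b) was past 1.5-fold with no floor applied. Over all 9368 named genes at background level 5545 were lower, with a median of -0.07, and 8.61% were past 1.5-fold. The intestinal and biliary sterol pair Abcg5 and Abcg8, which form a joint pump for plant sterols, belonged here, with values of 4.21 and 4.42 for Abcg5 and of 3.94 and 3.80 for Abcg8. No value of the 21 genes exceeded 6.10, and such signals cannot show whether the transcripts were present.

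Markers of other cells on these arrays bear on every bulk value, since fewer cells of a type and less RNA per cell cannot be told apart. Of 12 neutrophil markers 8 were above background on both arrays, 4 were counted higher in LysM(+) and 0 lower, and the median was 0.41. Of those counted, Elane (6.46) and Retnlg (6.29) lay within the background control range in TB/TB, so their folds are not exact. Over all named genes reaching the floor, 10.9% were counted higher and 5.16% lower, the shares to set beside every list in this paragraph. Summed log2 levels of the 12 markers were 17.36 in LysM(+) and 17.00 in TB/TB. By any amount 9 of the 12 were higher and 3 lower. Ltf, a granule protein of neutrophils, was 2.60-fold higher with both values above background, while Csf3r, the receptor for the neutrophil growth factor G-CSF, differed by -0.57 and Mpo, a granule enzyme, by -0.30. Of 7 fibroblast and stromal markers 3 were higher and 4 lower, with a median of -0.03 and summed levels of 10.29 and 10.58; 2 were counted, Col1a2 and Postn, both lower, while Pdgfrb differed by 0.37. Of 6 osteoclast markers 2 were higher and 4 lower, with a median of -0.14; Dcstamp was counted lower, while Acp5 was 1.42-fold higher. Of 6 mast cell markers 2 were higher and 4 lower, with a median of -0.14, and 1 was counted lower, Hdc. No T cell, B cell or erythroid marker was counted (0 of 4, 0 of 5 and 0 of 4 measured). The part of these cells in the values of the ABC genes was not tested.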

How the data were processed

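RNA of 2 samples, 1 per genotype, was read on GeneChip arrays. The authors deposited 1 log2 value per probe set and array, made by RMA (per the submitters' processing notes, which also name Affymetrix Expression Console); versions and the array's genome build were not given in the sources used here. Values reach 19.51, more than is usual for RMA. Log base 2 is assumed, as RMA implies, and every fold depends on it.

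The platform annotation gives 1 symbol for 19572 of 28846 probe sets, several for 0 and none for 9274; all 19572 were matched by Entrez ID to RefSeq (GRCm38.p6) and covered 19505 genes, each the mean of its probe sets. No test, p-value or error was computed, and having 2 arrays limits the precision. Folds are 2 to the power of the absolute difference. Members named with values are the exporters, those above background, those counted at 1.5-fold and others singled out in a sentence; context lists name at most 4 genes with the largest differences among those reaching the floor. Members, lists and limits were chosen with earlier results of these data known. Alternatives were centring, quantile normalization, loess (span 0.4), the brightest probe set, other limits, and means. The counting was run on simulated data with small noise and 2-fold changes. That noise was smaller than the spread of the real differences, so the run checks the code and not the counts of these arrays. Python 3.11.15, numpy 2.4.6, pandas 2.3.3, statsmodels 0.14.6 and matplotlib 3.10.9 were used.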

Additional observations from a re-analysis of the deposited data

How the results depend on the processing

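Settings compared were centring, quantile normalization, loess and the brightest probe set. Across them, the counts of members above background (22), at background level (21), higher (2) and lower (3) did not change. The 27 single genes compared kept their direction, moving by at most 0.11 on the log2 scale. As each member had 1 probe set, the brightest probe set rule could not change a member. Centring moved every difference by the same 0.0062. With a 2-fold limit 0 members were higher and 0 lower. With the highest background control as the floor 0 were higher and 2 lower, because the values of Abca13, Abcb10 and Abcg4 lie within the background range. With no floor 2 were higher and 4 lower. The median difference of the family was 0.16 over members reaching the floor, against -0.01 over all 48. Over all named genes reaching the floor it was 0.07. The count above background was 10 with the limit from probe sets with neg in their identifier. Over members reaching the floor the median of subfamily C was 0.09 and that of subfamily A -0.24. No paired analysis was possible because each group had 1 array, and for the same reason no replicate could be left out. No scanner signals or detection calls were used, so what counts as expressed rests on the limits given.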

Other observations

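A set of 5222 probe sets carries neg in its identifier and 1324 carry pos; the sources used here do not say what they read. The neg probe sets were not silent: their values reached 18.92, and 22.9% were at least 1.5-fold lower and 14.5% at least 1.5-fold higher in LysM(+). Their median difference was -0.12. With a mean value from 10 to below 12 it was -0.47 over 189 neg probe sets, against 0.11 over 2090 named genes of the same range. In that range 43.9% of neg probe sets and 2.82% of named genes were at least 1.5-fold lower. The pos probe sets had a median difference of 0.06, and the 23 background controls differed by at most 0.09.

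Genes of lysosomal lipid handling, a list set up alongside the others, had nearly equal values on the arrays. All 6 measured members (9 listed) were above background, with differences from -0.07 to 0.11. Npc1, Npc2 and Lipa also belong to the sterol export list, so the lists are not separate. Npc1 and Npc2, which pass cholesterol out of lysosomes toward the exporters, had values of 12.98 and 13.99 in LysM(+) and of 13.06 and 14.02 in TB/TB.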
